A study of Mus musculus with 6 samples.

Results

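A set of 10 genes that serve fetal growth or are expressed from a single parental copy was followed in mouse liver tumour cell lines, namely Igf2, H19, Igf2r, Igf2bp1, Igf2bp2, Igf2bp3, Lin28b, Dlk1, Meg3 and Gpc3. They were chosen by gene symbol, and all 10 were found among the 53465 genes of the count table. RNA sequencing had been done on 6 lines derived from liver tumours of adult female C57BL/6 mice, 3 with the genotype Myc_Utx (lines 2A, 2B and 2D) and 3 with the genotype Myc_p53 (lines 1, 2 and 3). The genotypes are those of the sample labels; the study's methods name an Mll3 guide, in place of Utx, for the sequenced lines, and the Kdm6a mRNA given below does not settle this. The tumours had been started by hydrodynamic tail vein injection, which carries plasmids into hepatocytes: a transposon inserted MYC, and a CRISPR plasmid cut Kdm6a, the gene for the H3K27 demethylase UTX, in Myc_Utx or the p53 gene in Myc_p53. All 6 lines therefore carry the MYC transgene, and the groups differ in the gene that was cut. The lines were cultured from digested tumours, and their purity was judged by eye. No line with MYC alone was analysed here, so the loss of Kdm6a and the loss of p53 cannot be told apart as the side from which a difference arises.

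The insulin-like growth factor IGF2 drives fetal growth through the IGF1 receptor, while the IGF2 receptor, IGF2R, takes the ligand up for degradation. Igf2 and H19 share an imprinted domain in which the paternal copy makes Igf2 and the maternal copy makes the non-coding RNA H19, and Dlk1 and Meg3 share another with the same split. The IGF2BP proteins bind and stabilise messenger RNAs in fetal tissues, LIN28B blocks the maturation of let-7 microRNAs, and glypican 3 (GPC3) is a cell surface proteoglycan of fetal liver. Most of these genes are shut down in adult liver, and several reappear in hepatocellular carcinoma, which is why they are called oncofetal.

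One feature the choice of genes did not use is the let-7 target site, shown here because let-7 is the microRNA family that LIN28B holds back. The mature sequences below are from RefSeq (GRCm38.p6), 5′ to 3′, with the seed, bases 2 to 8, in capitals. let-7a, let-7b, let-7g and miR-98 share 1 seed, and let-7j differs from it at the last base.
mmu-let-7a-5p: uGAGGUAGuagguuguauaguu
mmu-let-7b-5p: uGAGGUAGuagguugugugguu
mmu-let-7g-5p: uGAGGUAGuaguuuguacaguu
mmu-miR-98-5p: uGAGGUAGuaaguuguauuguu
mmu-let-7j: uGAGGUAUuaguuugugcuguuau

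The reverse complement of the common seed, CTACCTC, was searched on the transcript strand of 20996 mouse 3′ UTRs (GRCm38, GENCODE M21). Of these UTRs, 8.95% held it at least once and 0.152% at least 3 times. Of the 8 protein-coding genes followed, 5 held it. Igf2bp1 and Lin28b had 4 matches each, in UTRs of 6337 and 4445 bases, and of all UTRs of similar length (0.8 to 1.25 times) 34.4% and 24.1% held at least 1. Igf2bp2, Igf2bp3 and Igf2r had 1 match each, against 12%, 13.3% and 9.56% of UTRs of their length. Igf2, Dlk1 and Gpc3 had none. Trim71 and Hmga2, which encode an RNA-binding protein of early embryos and an architectural chromatin protein and belong to the same let-7 group, had 4 each. One site per gene is printed, except for Hmga2, all on the minus strand of GRCm38 and 30 bases long, with the match in capitals.
Igf2bp1, chr11:95961774-95961803: agtgctgtgcgaagtaaaCTACCTCaaggt
Igf2bp2, chr16:22059469-22059498: aaaacacacaaataaaagCTACCTCaggtg
Igf2bp3, chr6:49086783-49086812: acgtgcatttttactcaaCTACCTCaggta
Lin28b, chr10:45381018-45381047: ttcacccgggcgggaagtCTACCTCatgca
Igf2r, chr17:12683032-12683061: gcccacctgctccgtgccCTACCTCatctc
Trim71, chr9:114512468-114512497: tacaacattgcctaagtcCTACCTCagctt
The match is a run of letters in an annotated UTR, and let-7 itself was not measured in these libraries.

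The libraries held 4656103 to 6937497 counts. Values are given as raw counts or as counts per 1000000 (CPM) after scaling for library composition (TMM), and differences as log2 fold changes of Myc_Utx over Myc_p53 from edgeR's quasi-likelihood F test, with Benjamini-Hochberg adjustment over all 11510 genes tested. Kdm6a mRNA itself stood at 39.7, 45.7 and 49.0 CPM in the Myc_Utx lines and 69.5, 64.5 and 42.5 CPM in the Myc_p53 lines, a log2 difference of -0.39 (SE 0.22, edgeR adjusted p = 0.243), and its groups overlapped. A cut by Cas9 need not lower the mRNA, so this level does not check the genotype. Hepatocyte identity was low in all lines: the 15 hepatocyte markers together made 9.77 to 83.3 CPM in Myc_Utx and 48.7 to 87.8 CPM in Myc_p53. Alb, the serum albumin gene, had 14, 26 and 4 counts against 15, 7 and 16 (log2 difference 0.52, SE 0.61, edgeR adjusted p = 0.578). Of these markers, 3 were above 3 counts in every Myc_Utx line and 8 in every Myc_p53 line. Some others, named after their values were seen, went both ways. Apob had 0, 6 and 1 counts against 88, 71 and 378 (log2 difference -5.80, SE 1.07, edgeR adjusted p = 0.024). Hnf4a had 3, 3 and 0 counts against 64, 8 and 47, and Apoa1 3, 5 and 3 against 0, 1 and 2. In line 2D, Fgb and Ahsg alone made 44.3 and 34.3 CPM of the sum. The 10 macrophage markers summed to 2.79 to 5.99 CPM in Myc_Utx and 39.9 to 108 CPM in Myc_p53, with 1 and 7 of them above 3 counts in every line of the group and Adgre1, C1qc, Marco, Clec4f and Ptprc at 0 in all Myc_Utx lines. In bulk RNA, fewer cells of a type and less RNA per cell cannot be told apart.

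**Figure D1:**
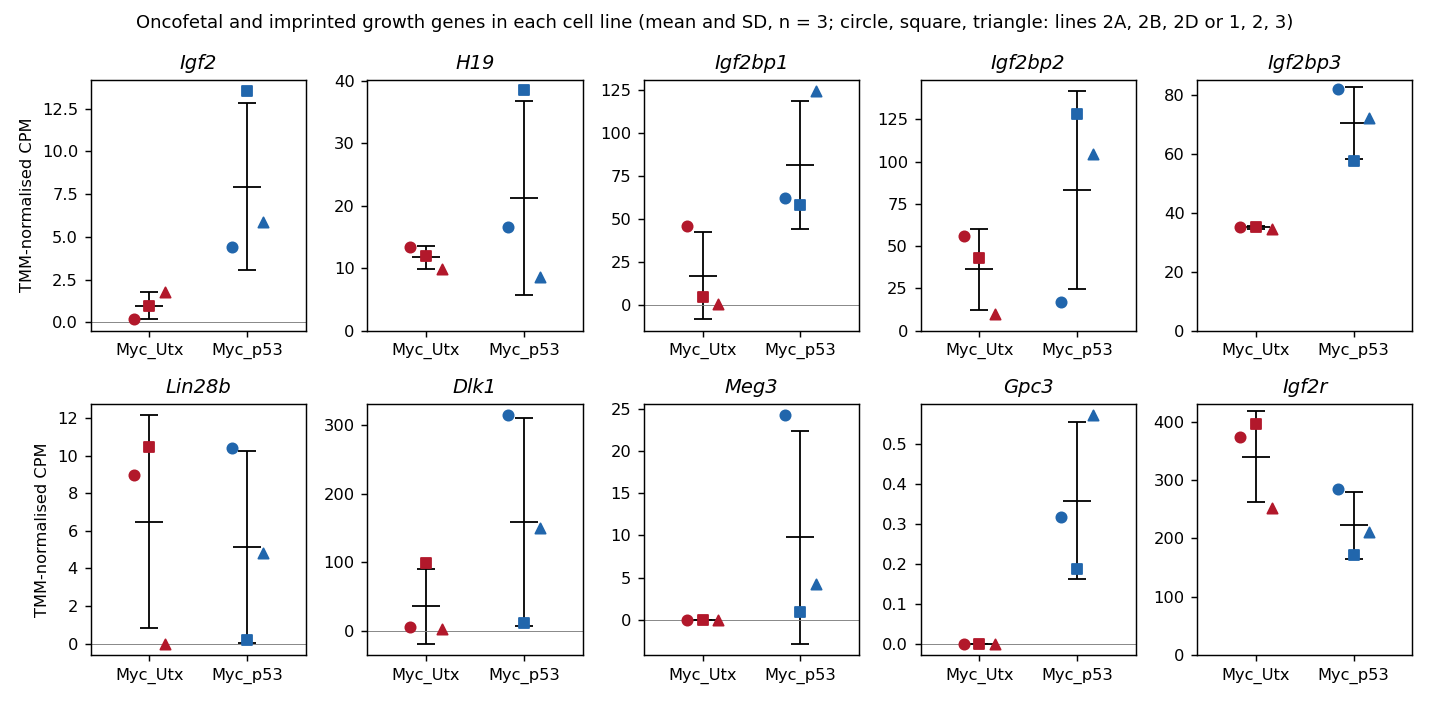
CPM on a linear axis for each of the 10 genes in each cell line, Myc_Utx lines beside Myc_p53 lines, with the mean and SD of each group. Igf2bp3 stands at 34.5 to 35.3 CPM in Myc_Utx and 57.6 to 81.9 CPM in Myc_p53, while Igf2bp1, Lin28b and Dlk1 spread widely inside a group.

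Of the 10 genes, 8 had enough counts for the test, and 2 of these passed: Igf2 and Igf2bp3 were lower in Myc_Utx. None passed as higher by edgeR or by DESeq2, and 1, Igf2r, was higher at an unadjusted p under 0.05 by edgeR. Leaving out 2A, 2B, 2D or Myc_p53 line 3 left 0 of the 10 genes called lower, and leaving out Myc_p53 line 1 left 1. Of all genes tested, 14.7% passed, 7.69% as lower and 6.99% as higher. The fitted log2 fold change was below 0 for 6 of the 8 and above 0 for Lin28b and Igf2r, with a median of -1.10, beside -0.0117 over all genes tested. The lines of one group lay wholly apart from those of the other for 3 of the 8 (Igf2, Igf2bp1 and Igf2bp3), where 42.0% of all tested genes did so. Meg3 and Gpc3, the remaining genes, were under the count filter, and both were at 0 counts in all Myc_Utx lines. The exact permutation test of a single gene with 3 lines against 3 cannot go below p = 0.1 (two-sided), which Igf2, Igf2bp1, Igf2bp3, Meg3 and Gpc3 reached.

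**Figure D2:**
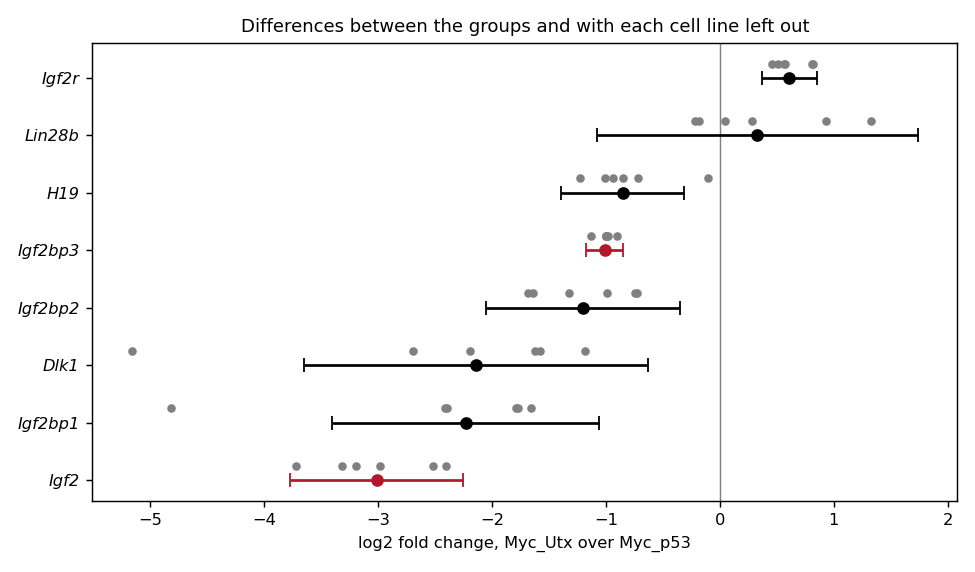
Log2 fold change, Myc_Utx over Myc_p53, with its standard error for the 8 genes tested (red where the adjusted p is under 0.05), and grey dots for the 6 fits that each leave out 1 line. Igf2 and Igf2bp3 are the red points at -3.01 and -1.01, and the dots of Dlk1 and Igf2bp1 reach -5.16 and -4.81.

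Igf2 (ENSMUSG00000048583, chr7:142650766-142666816, minus strand, GRCm38), the fetal growth ligand, had few counts in Myc_Utx. It had 1, 5 and 8 counts in lines 2A, 2B and 2D, and 28, 73 and 41 counts in Myc_p53 lines 1, 2 and 3. Every Myc_Utx line was below every Myc_p53 line. The levels averaged 0.972 ± 0.792 CPM (SD, n = 3) and 7.93 ± 4.9 CPM (n = 3), a log2 fold change of -3.01 (SE 0.76, edgeR adjusted p = 0.0471), or a fitted level 8.08-fold lower. The call is close to the threshold and rests on few counts: with any 1 of the 6 lines left out the edgeR adjusted p was 0.0596 to 0.138 and the log2 fold change -3.72 to -2.40. Its exons share 3596 bases with the read-through gene Gm49394, which had 1 count in all lines together. How reads in these shared bases were assigned is not given in the sources used here, so the absolute level of Igf2 is uncertain.

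H19 (ENSMUSG00000000031, chr7:142575529-142578143, minus strand), the non-coding neighbour of Igf2, did not pass the test. It had 67, 64 and 44 counts in Myc_Utx and 105, 208 and 60 in Myc_p53. Line 2 of Myc_p53 stood highest, as it did for Igf2, and line 3 lay below all Myc_Utx lines in CPM. The means were 11.7 ± 1.8 CPM (SD, n = 3) and 21.2 ± 15.5 CPM (n = 3), a log2 fold change of -0.85 (SE 0.54, edgeR adjusted p = 0.298). Without line 2 of Myc_p53 the log2 fold change was -0.10 (adjusted p = 0.872 by edgeR).

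Igf2r (ENSMUSG00000023830, chr17:12682406-12769664, minus strand), the receptor that clears IGF2, was the best expressed of the 10 per kilobase of deposited length in Myc_Utx. It had 374, 396 and 252 CPM there and 284, 172 and 211 CPM in Myc_p53. Lines 2A and 2B lay above every Myc_p53 line and 2D lay among them. The log2 fold change was 0.61 (SE 0.24), with an unadjusted p of 0.043 and an adjusted p of 0.131 by edgeR. Airn, the antisense RNA of the Igf2r domain, was looked at after its values were seen: it had 18, 36 and 14 counts in Myc_Utx and 75, 42 and 73 in Myc_p53, without overlap (log2 fold change -1.15, SE 0.38, edgeR adjusted p = 0.0881). Its annotated exons share no bases with those of Igf2r.

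Some other genes of the IGF and insulin axis were lower in Myc_Utx. Of 20 listed ligands, receptors, binding proteins and adaptors, 15 were tested. Of these 5 fell, 1 rose and 9 were not called, where 7.69% and 6.99% of all tested genes fell and rose. The median log2 fold change was -0.67, beside -0.0117 over all genes tested. Igf1, the postnatal ligand, had 2, 3 and 8 counts in Myc_Utx and 64, 52 and 51 in Myc_p53 (log2 fold change -3.30, SE 0.56, edgeR adjusted p = 0.0203). The 5 calls became 0 without 2A, 0 without 2B, 2 without 2D and 1 without Myc_p53 line 3, and the single rise was lost with any line left out. Both IGF ligands were low in all 3 Myc_Utx lines. Macrophages and fibroblasts also make Igf1. The macrophage sums given above were likewise lower in Myc_Utx. Within Myc_p53 they were 98.6, 39.9 and 108 CPM, where Igf1 had 10.1, 9.64 and 7.27 CPM. The stellate cell and fibroblast sums were 1953, 2690 and 2693 CPM in Myc_Utx and 42.4, 3170 and 722 CPM in Myc_p53. The part of these cells in the Igf1 levels was not tested.

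Igf1r, the receptor that signals for both ligands, stood at 140.0, 126 and 147 CPM in Myc_Utx and 280.5, 202 and 298 CPM in Myc_p53 (log2 fold change -0.92, SE 0.17, edgeR adjusted p = 0.0240). The log2 fold change of Igf1r became -0.60 with an adjusted p of 0.0652 by edgeR once transcript length was fitted. Irs2, an adaptor under both the insulin and the IGF1 receptors, had 33.1, 37.8 and 41.9 CPM against 139, 102 and 123 CPM (log2 fold change -1.69, SE 0.17, edgeR adjusted p = 0.0118). No Myc_Utx line reached the lowest Myc_p53 line for either gene.

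Among the binding proteins, Igfbp7 had 17.9, 52.2 and 38.7 CPM in Myc_Utx and 155, 141 and 208 CPM in Myc_p53 (log2 fold change -2.21, SE 0.39, edgeR adjusted p = 0.0221). Igfbp6, which prefers IGF2 as its ligand, had 0, 2 and 0 counts against 15, 12 and 15 (edgeR adjusted p = 0.0335), too few for a firm fold. Grb14, an adaptor that inhibits the insulin receptor, was the gene that rose, from 6.32, 6.30 and 7.27 CPM in Myc_p53 to 11.8, 26.8 and 39.0 CPM in Myc_Utx (log2 fold change 1.96, SE 0.44, edgeR adjusted p = 0.0364).

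The 3 IGF2BP genes encode closely related RNA-binding proteins; 1 of them passed the test, and all 3 fitted log2 fold changes were below 0. Igf2bp3 (ENSMUSG00000029814, chr6:49085223-49214957, minus strand) was the steadiest of the 10 genes. It stood at 35.3, 35.2 and 34.5 CPM in Myc_Utx, a 1.02-fold range, and at 81.9, 57.6 and 72.1 CPM in Myc_p53, a 1.42-fold range. The Myc_Utx levels rest on 177, 188 and 155 counts, where counting error alone is wider than that 1.02-fold range. The groups did not overlap, and the log2 fold change was -1.01 (SE 0.16, edgeR adjusted p = 0.0188), a fitted level 2.02-fold lower. With 1 line left out the log2 fold change of Igf2bp3 was -1.13 to -0.90 and the edgeR adjusted p 0.0138 to 0.0808; it passed without line 1 or 2 of Myc_p53, and was 0.0628 without line 3 and 0.0721, 0.0732 and 0.0808 without 2A, 2B and 2D. Its exons share 1529 bases with Malsu1, a gene on the other strand, whose own value leaned the other way (log2 fold change 0.46, SE 0.18, edgeR adjusted p = 0.127).

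Igf2bp1 (ENSMUSG00000013415, chr11:95957163-96005940, minus strand) had 232, 26 and 3 counts in Myc_Utx lines 2A, 2B and 2D and 393, 314 and 871 in Myc_p53. Its level spanned 69.3-fold inside Myc_Utx, from 46.3 CPM in 2A to 0.668 CPM in 2D, and even the highest of these lines was under the lowest Myc_p53 line at 58.2 CPM. The log2 fold change was -2.23 (SE 1.17, edgeR adjusted p = 0.223). Without 2A the log2 fold change of Igf2bp1 was -4.81 (adjusted p = 0.0656 by edgeR).

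Igf2bp2 (ENSMUSG00000033581, chr16:22059009-22163299, minus strand) had 56.0, 42.7 and 9.80 CPM in Myc_Utx and 16.9, 128 and 104 CPM in Myc_p53. Line 1 of Myc_p53 lay below lines 2A and 2B, so the groups overlapped (log2 fold change -1.20, SE 0.85, edgeR adjusted p = 0.353). The summed level of the 3 genes was 138, 82.8 and 45.0 CPM in Myc_Utx and 161, 244 and 301 CPM in Myc_p53. Its groups did not overlap (p = 0.1 in a two-sided exact permutation test, its lower limit). Of all single genes tested, 42.0% did not overlap either. Lines reached that sum differently: Igf2bp3 made 76.7% of it in line 2D and 50.9% in line 1 of Myc_p53, but 23.6% to 42.5% in the other lines.

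Lin28b (ENSMUSG00000063804, chr10:45376620-45486395, minus strand), the let-7 blocker, was present or absent line by line in both genotypes. It had 45, 56 and 0 counts in Myc_Utx and 66, 1 and 34 in Myc_p53. Line 2D and line 2 of Myc_p53 were at or under the floor of 3 counts per library, and the other 4 lines ranged from 4.85 to 10.5 CPM. The log2 fold change of 0.33 (SE 1.41, edgeR adjusted p = 0.886) had no stable sign: it was -0.18 without 2B and -0.22 without line 2 of Myc_p53. Its paralogue Lin28a, named after its values were seen, had 0 counts in all lines.

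Of 14 genes listed around LIN28, let-7 and HMGA, 13 were found in the table and 10 were tested; 1 fell, beside 7.69% of all tested genes, and the median log2 fold change was -0.21. None rose by edgeR or DESeq2, with 0 higher at an unadjusted p under 0.05 by edgeR. The gene that fell, Trim71, had 3, 1 and 0 counts in Myc_Utx and 424, 169 and 282 in Myc_p53 (edgeR adjusted p = 0.0103), all Myc_Utx lines being at or under the floor. Leaving out 2A raised the adjusted p of Trim71 to 0.0518 by edgeR, while leaving out any other line kept the call. Without line 2 of Myc_p53, 2 genes of the list passed as lower. Hmga2 did not separate the groups, with 324, 502 and 92 counts against 202, 293 and 624 (log2 fold change 0.03, SE 0.59, edgeR adjusted p = 0.974); it was lowest of its group in line 2D, like Lin28b, Igf2bp1 and Igf2bp2.

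Dlk1 (ENSMUSG00000040856, chr12:109452823-109463336, plus strand), a Notch-related transmembrane protein of fetal hepatoblasts, varied more inside each group than between them. It had 29, 527 and 13 counts in Myc_Utx and 1990, 61 and 1056 in Myc_p53, or 5.78, 98.7 and 2.89 CPM against 314, 11.3 and 151 CPM. Line 2B was high and line 2 of Myc_p53 low for their groups, giving ranges of 34.1-fold and 27.8-fold. The log2 fold change was -2.14 (SE 1.51, edgeR adjusted p = 0.351), and -5.16 without line 2B (adjusted p = 0.114 by edgeR). The sum of the 7 cholangiocyte markers was high in the same lines: 719, 1463 and 554 CPM in Myc_Utx and 1485, 168 and 1564 CPM in Myc_p53. Spp1 alone made 611, 1362 and 449 CPM and 997, 70.8 and 1018 CPM of it. Within Myc_Utx, Sox9 was also highest in line 2B (40.5, 74.1 and 32.5 CPM), while Krt19 was lowest there (46.7, 4.68 and 28.7 CPM). The sums of the 10 stellate cell and fibroblast markers ran 1953, 2690 and 2693 CPM and 42.4, 3170 and 722 CPM. Most of this sum was Col3a1 in all lines but Myc_p53 lines 1 and 3, a collagen gene with 1731, 2301 and 2558 CPM and 10.3, 2721 and 73.9 CPM. Their part in the Dlk1 levels was not tested.

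Meg3 (ENSMUSG00000021268, chr12:109541001-109571726, plus strand), the maternally expressed RNA of the Dlk1 domain, was at 0 counts in all 3 Myc_Utx lines, 2B included. In Myc_p53 it had 153, 5 and 30 counts, or 24.2, 0.927 and 4.28 CPM. Against the floor of 3 counts per library it was at least 16.1-fold lower in Myc_Utx on the mean, and at least 4.27-fold lower without line 1 of Myc_p53. It had too few counts for the filter; in fits that kept it, the adjusted p was 0.0324 by edgeR with no filter, where 3.74% of genes were called lower, and 8.7e-05 by DESeq2, where 11.5% were. With a Myc_Utx line left out it was tested and had adjusted p-values of 0.135 to 0.149 by edgeR, and 0.0452 without line 2 of Myc_p53. Meg3 followed Dlk1 across the Myc_p53 lines, high in line 1 and low in line 2, but not in line 2B, where Dlk1 reached 527 counts.

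Other RNAs of the Dlk1 domain, named after their values were seen, were mixed. Rian, which like Meg3 is a maternally expressed non-coding RNA, had 0 counts in all Myc_Utx lines and 187, 1 and 31 in Myc_p53, at least 18.7-fold lower in Myc_Utx against the same floor on the mean. Line 1 carries this bound, which was 3.78-fold without it, and the 1 count of line 2 is itself under the floor. Mirg had 0, 3 and 4 counts against 5, 1 and 2. Dio3, a thyroid hormone deiodinase at the far end of the domain, had 11, 18 and 5 counts against 4, 40 and 136 (log2 fold change -2.02, edgeR adjusted p = 0.223) and was not high in line 1.

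**Figure D3:**
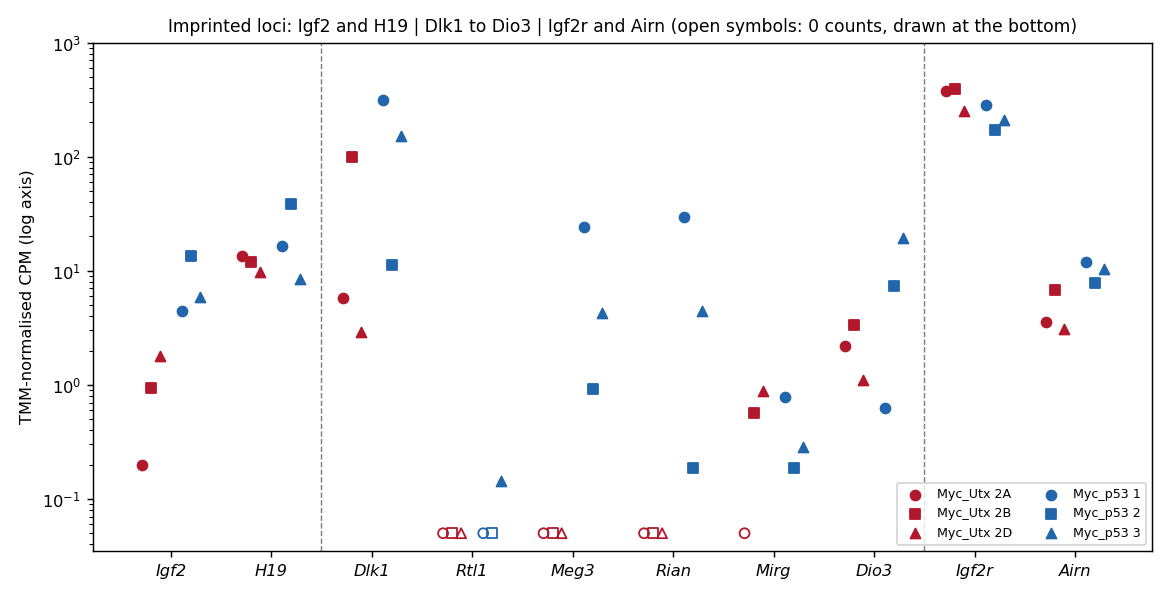
CPM on a logarithmic axis in each cell line for genes of the Igf2-H19, Dlk1-Meg3 and Igf2r domains, with open symbols at the bottom for 0 counts. Meg3 and Rian are at 0 in the 3 Myc_Utx lines, and in Myc_p53 both are highest in line 1, where Dlk1 reaches 314 CPM.

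Of 50 other imprinted genes listed, 26 were tested; 3 rose and 1 fell, beside 6.99% and 7.69% of all tested genes, so the share called was near the background, and the median log2 fold change was -0.08. Leaving out 2A, 2B, 2D or Myc_p53 line 3 left 0 genes called higher, and Myc_p53 line 1 left 1; the number called lower was 0 without 2A and 3 without Myc_p53 line 2. Peg10, a retrotransposon-derived gene that is active in placenta and in liver tumours, rose from 31.6, 67.5 and 35.1 CPM in Myc_p53 to 288, 1054 and 158 CPM in Myc_Utx (log2 fold change 3.49, SE 0.78, edgeR adjusted p = 0.0359). Without line 2B the log2 fold change of Peg10 was 2.34 (adjusted p = 0.0645 by edgeR). Nap1l4, a histone chaperone gene, stood at 197, 193 and 229 CPM in Myc_Utx against 118, 114 and 129 CPM (log2 fold change 0.78, SE 0.12, edgeR adjusted p = 0.0171). Snrpn, a splicing factor gene, had 60, 81 and 72 counts in Myc_Utx and 44, 14 and 38 in Myc_p53 (edgeR adjusted p = 0.0495). The adjusted p of Snrpn was above the threshold in other fits with all 6 lines, at 0.0553 with no filter, 0.0514 with DESeq2 size factors, 0.0568 with total counts and 0.0741 with length offsets, all by edgeR. Impact, a regulator of translation under amino acid shortage, fell to 36.9, 43.1 and 38.3 CPM in Myc_Utx from 107, 115 and 101 CPM (log2 fold change -1.44, SE 0.13, edgeR adjusted p = 0.00933).

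Gpc3 (ENSMUSG00000055653, chrX:52272426-52613950, minus strand), the oncofetal glypican used as a marker of human hepatocellular carcinoma, was barely detected. It had 0 counts in the 3 Myc_Utx lines and 2, 1 and 4 in Myc_p53. Since both groups were near or under the floor of 3 counts, no fold is given. With no filter its adjusted p was 0.181 by edgeR, and DESeq2 gave none after its own filter. Afp, the fetal counterpart of albumin, was low, with 3, 5 and 5 counts against 20, 3 and 18, and was not tested. Line 2A and line 2 of Myc_p53 were at the floor.

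Of 25 other oncofetal and progenitor genes, the remaining glypicans included, 21 exceeded the floor in at least 1 line and 14 were tested. Of these 4 fell, where 7.69% of all tested genes did. The median log2 fold change was -0.51, beside -0.0117 over all genes tested. None rose by edgeR, with 4 higher at an unadjusted p under 0.05, while DESeq2 called 3 higher. Leaving out 2A left 0 of the 4 calls, 2B, 2D or Myc_p53 line 3 left 1 each, and Myc_p53 line 1 left 2; without Myc_p53 line 2, 1 gene was called higher. Cd34, a stem and endothelial surface glycoprotein, had 2, 3 and 2 counts in Myc_Utx and 106, 104 and 62 in Myc_p53 (edgeR adjusted p = 0.0103). The 7 endothelial markers summed to 0.445 to 1.87 CPM in Myc_Utx and 0.927 to 2.53 CPM in Myc_p53, with none above the floor in every line of a group. Bex1, a gene of progenitor and neural cells, had 4, 2 and 0 counts against 599, 60 and 581 (edgeR adjusted p = 0.0185). Prom1, the progenitor surface marker CD133, had 2, 0 and 0 counts against 141, 12 and 98 (edgeR adjusted p = 0.0287). Bex1 and Prom1 shared with Dlk1 and Meg3 a low level in line 2 of Myc_p53. Sox4, a progenitor transcription factor, stood at 114, 153 and 109 CPM against 225, 182 and 241 CPM (log2 fold change -0.79, SE 0.18, edgeR adjusted p = 0.0371). Gpc1, a glypican named after its values were seen, had 277, 1006 and 453 counts in Myc_Utx and 75, 308 and 169 in Myc_p53 (log2 fold change 1.89, edgeR adjusted p = 0.101).

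**Figure D4:**
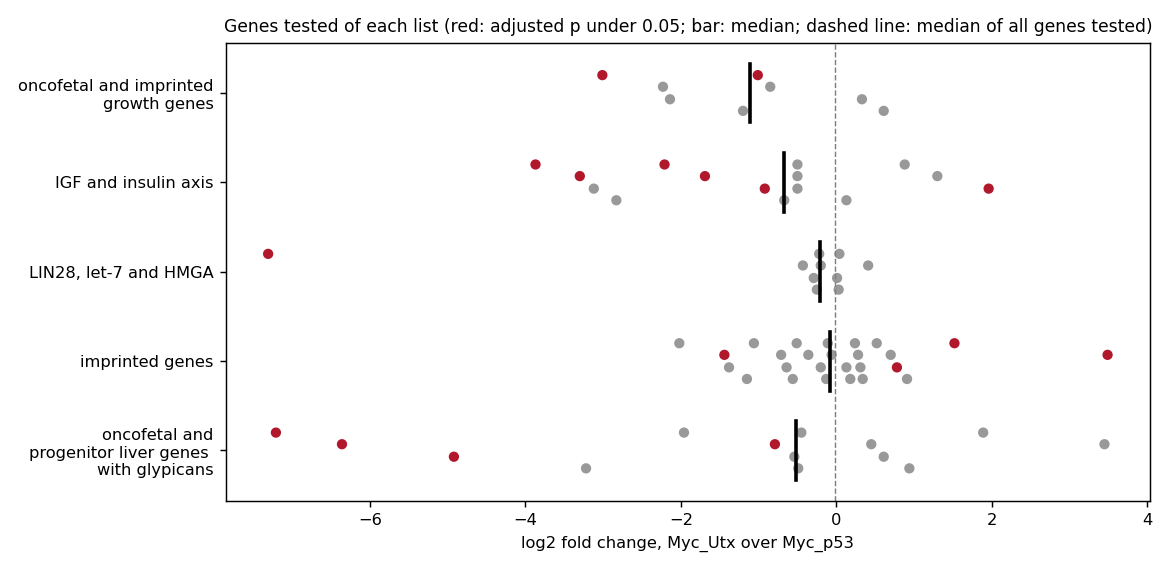
Log2 fold changes, Myc_Utx over Myc_p53, of the tested genes in each gene group, red where the adjusted p is under 0.05, with a bar at the group's median and a dashed line at -0.0117, the median of all genes tested. The medians lie at -1.10 for the genes followed, -0.67 for the IGF and insulin axis and -0.08 for imprinted genes.

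Levels can be set side by side between genes only per length. The length used was the deposited one, which for most of these genes equals all annotated exons joined. It can exceed the length of any single transcript, so the order is not one of transcript numbers. Per kilobase of this length, Igf2r led in Myc_Utx at 36.1 ± 8.2 CPM (SD, n = 3), with no line overlapping the next gene. Dlk1 followed at 6.33 ± 9.63, Igf2bp2 at 5.07 ± 3.34, H19 at 4.76 ± 0.731 and Igf2bp3 at 4.29 ± 0.0524 CPM per kilobase, and neighbours from Dlk1 down to Igf2bp1, Lin28b and Igf2 overlapped. In Myc_p53, Dlk1 (28.1 ± 26.8) and Igf2r (23.6 ± 6.03) overlapped at the top. Igf2bp2 (11.7 ± 8.22), Igf2bp3 (8.65 ± 1.49), H19 (8.63 ± 6.31) and Igf2bp1 (8.42 ± 3.82) came next and overlapped one another. Igf2r lay above all 4 without overlap, whereas Dlk1, at 2.00 CPM per kilobase in line 2, did not. Igf2 came after these at 1.39 ± 0.856 CPM per kilobase, beside Lin28b, Meg3 and Gpc3. The highest Igf2 line, at 2.36 CPM per kilobase, was just under the lowest Igf2bp2 line, at 2.37, and how reads in the exons shared with Gm49394 were assigned is not given in the sources used here, so the rank of Igf2 is uncertain.

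Within each genotype 1 line was lowest for most of the 10 genes. Line 2D was the lowest Myc_Utx line for 7 of them (H19, all 3 IGF2BP genes, Lin28b, Dlk1 and Igf2r) and the highest for Igf2. Line 2 of Myc_p53 was also lowest for 7 (Igf2bp1, Igf2bp3, Lin28b, Dlk1, Meg3, Gpc3 and Igf2r), yet highest for Igf2, H19 and Igf2bp2. Line 2D had the smallest total of all libraries, 4656103 counts, and line 2 of Myc_p53 had the smallest of its group, 5370608 counts; the values above are scaled for this, and the part of depth was not tested.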

How the data were processed

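RNA from 6 mouse liver tumour cell lines, 3 per genotype, was sequenced. Per the labels and the submitters' processing notes, the deposited table holds raw counts per gene, made by the authors with Trimmomatic 0.36, STAR 2.5.3a and featureCounts 1.6.3 on GRCm38 (mm10). The study's methods name a human build and another counter; the table holds mouse genes, and the notes were followed. The strand setting is not given in the sources used here. Gene positions equal those of GENCODE M21 for all 10 genes. Counts were scaled by TMM and tested with edgeR 4.0.16 (R 4.3.3) over genes passing filterByExpr (minimum count 10), with a threshold of 0.05 on the adjusted p. DESeq2 1.42.0 was an alternative, with other filters, scalings, length offsets (a spline with 5 degrees of freedom) and each line left out in turn. The biological coefficient of variation was 33.4%. A floor of 3 counts per library stood for a count of 0, covering counting error only. The code was tested on simulated data. The targeted gene of Myc_p53 is not reported here. The study's methods call the lines independent and tumour-derived, and do not say whether each came from its own mouse. The names 2A, 2B and 2D share a number whose meaning is not given in the sources used here. The genes and lists were chosen with earlier results of these data known. Besides the 10 genes, Kdm6a, Afp, Hmga2, Igf1r and Alb were named whatever their values, and from each list up to 4 genes per direction with the largest fold change among those that passed.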

Additional observations from a re-analysis of the deposited data

How the results depend on the processing

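Precision is set by 3 lines per group. No paired analysis was possible because line names are not shared between genotypes. With a line left out, genes called lower in Myc_Utx numbered 1 to 1118 and higher 3 to 836, against 885 and 805 with all lines; both were fewest without 2A (1 and 3), and without 2B, 2D or Myc_p53 line 3 they were 38 and 43, 28 and 43, and 57 and 63. Of the 10 genes, 0 to 2 were then called lower. The same ranges were 0 to 5 lower and 0 to 0 higher for the IGF and insulin axis, 0 to 2 lower for LIN28, let-7 and HMGA, 0 to 3 lower and 0 to 4 higher for imprinted genes, and 0 to 6 lower and 0 to 1 higher for oncofetal genes. DESeq2 called 1572 lower and 1277 higher over all genes, 2 lower for LIN28, let-7 and HMGA, 3 lower and 6 higher among imprinted genes, and 3 higher among oncofetal genes. With at least 10 counts in every line, 1 of the 10 genes was lower (Igf2 was then not tested), with 0 for LIN28, let-7 and HMGA, 2 for imprinted and 1 for oncofetal genes. With no filter, 2 genes of the LIN28, let-7 and HMGA list and 2 imprinted genes were lower. With transcript length offsets 1 of the 10 genes was lower, as Igf2 had an adjusted p of 0.0577 by edgeR. Higher genes made up 47.6% of calls, and 37.3% when only total counts were used. Over all genes the median difference was -0.0117 on the log2 scale, but -0.235 with no filter and -0.264 with DESeq2. Signs turned for Lin28b (-0.18 without 2B, -0.22 without Myc_p53 line 2, up to 1.33), Alb (-0.09 without 2B, up to 0.96) and Hmga2 (-0.00 with at least 10 counts in every line, -0.02 with total counts, and -0.01, -0.44, -0.27 and -0.01 without 2A, 2B, and Myc_p53 lines 1 and 2, up to 0.47). Causes were not tested. For single named genes, 67 of the values with a line left out lost their call and 82 kept direction and side of the threshold.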
